A study of Mus musculus with 6 samples.

Results

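The motile cilia genes were examined by RNA-Seq in cultured neural stem and progenitor cells (NSC/NPCs) of the mouse fetal hypothalamus after prenatal exposure to high estradiol. The members were chosen by gene symbol alone. They comprise every symbol that starts with Dnah, Dnai, Dnaaf, Cfap, Rsph or Tekt followed by a digit, together with 17 named genes such as Foxj1, Rfx2, Hydin, Ccdc39 and Drc1. In all, 80 of the 22048 genes in the table met this rule, and 68 of them passed the filter on low read counts and were tested. The rule uses no expression value, although it was written with earlier results of these data known. A further 12 genes whose current names fit the rule, among them the dynein intermediate chains, carry older symbols (Dnaic1, Wdr63 and others), and these were counted with the other motile cilia genes below.

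In the HE (high estradiol) group, C57BL/6 dams aged 8 weeks were gavaged daily between E5.5 and E11.5 with 100 μg/kg of estradiol valerate. In the NC (control) group the dams received the corn oil solvent alone, although the treatment field of these samples reads untreated. All samples came from male fetuses at E14.5. Hypothalamic cells were grown as free-floating neurospheres with EGF and bFGF, each at 10 ng/mL, and harvested at the first passage. Each sample held cells of 2 mice, so a sample is a pool, and neither the litters nor the culture batches are named. There were 3 NC samples (NC1, NC2, NC3) and 3 HE samples (HE1, HE2, HE3). The neural stem cell markers Sox2 (97.3 to 209 RPKM) and Nes, which encodes Nestin (154 to 247 RPKM), were abundant in every sample. RPKM is the read count scaled by gene length in kilobases and by the sample's total of counted reads, so that levels can be compared between genes.

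Motile cilia beat by means of the axoneme, a ring of doublet microtubules around a central pair. Outer and inner dynein arms on the doublets generate the force, radial spokes and the central pair apparatus regulate it, and nexin links and molecular rulers hold and space the parts. Dyneins are assembled in the cytoplasm by dedicated factors before they enter the cilium. In the brain, motile cilia are carried by ependymal cells and the choroid plexus epithelium, and the program is switched on by regulators such as Mcidas, Foxj1 and the RFX factors. Neural progenitors in general bear a single primary cilium, which has no dynein arms and does not beat in this way.

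As RFX factors bind the promoters of ciliary genes, the promoter letters of the members are shown first. The RefSeq promoter table of GRCm38.p6 held windows of 300 bases (250 before and 50 after the start site) for 66 of the 80 members. The RFX core letters GTTNCC were searched on both strands. They occurred in 50 of the 66 member promoters (75.8%), in 70 of 85 (82.4%) of the other motile cilia genes and in 37 of 46 (80.4%) of the primary cilium genes, against 48.8% of all 27025 genes with a window. The X-box, defined as GTTNCC followed within 3 bases by its inverted copy GGNAAC, is palindromic. It was found in 2 member promoters (3.03%), those of Cfap298 and Pifo, against 0.936% of all genes. Its share was higher in the other motile cilia genes (7 of 85, 8.24%) and in the primary cilium genes (7 of 46, 15.2%). The forkhead letters GTAAACA, searched on both strands, occurred in 6 member promoters (9.09%) against 4.05% of all genes. They occurred in 6 of 85 (7.06%) of the other motile cilia genes and in 0 of 46 primary cilium genes. The motifs are short, the X-box contains the RFX core, and a match is not a measured binding site.

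The 200 bases before the start site are given for 6 members whose values are described below. Rfx2 is itself an RFX factor, Drc1, Rsph9 and Cfap44 encode axoneme parts that were lower in mean in HE, Pifo carries the X-box, and Cfap20 was higher in mean in HE. Capitals mark the RFX core letters on either strand, and in Pifo the whole X-box. The start site is that of the promoter table, and the gene spans of Drc1, Rsph9, Cfap44 and Pifo begin further upstream, at other transcript starts.
Rfx2 (chr17:56831009-56831208, minus strand): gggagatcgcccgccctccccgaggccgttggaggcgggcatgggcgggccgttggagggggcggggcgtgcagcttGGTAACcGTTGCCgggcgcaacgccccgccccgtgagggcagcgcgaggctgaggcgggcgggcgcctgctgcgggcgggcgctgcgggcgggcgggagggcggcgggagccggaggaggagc
Drc1 (chr5:30281193-30281392, plus strand): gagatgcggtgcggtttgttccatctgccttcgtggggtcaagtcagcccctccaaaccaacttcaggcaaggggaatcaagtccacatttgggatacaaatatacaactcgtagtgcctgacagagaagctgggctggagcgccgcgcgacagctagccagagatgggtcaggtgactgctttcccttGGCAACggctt
Rsph9 (chr17:46144201-46144400, minus strand): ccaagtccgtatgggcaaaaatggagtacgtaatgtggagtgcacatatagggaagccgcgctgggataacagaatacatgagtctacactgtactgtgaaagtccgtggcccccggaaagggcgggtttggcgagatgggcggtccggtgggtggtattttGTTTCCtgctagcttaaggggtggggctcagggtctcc
Cfap44 (chr16:44394599-44394798, plus strand): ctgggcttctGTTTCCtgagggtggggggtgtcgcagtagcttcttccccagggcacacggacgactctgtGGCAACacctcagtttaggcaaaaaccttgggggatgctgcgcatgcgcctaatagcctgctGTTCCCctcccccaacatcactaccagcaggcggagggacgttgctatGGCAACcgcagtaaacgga
Pifo (chr3:106001498-106001697, minus strand): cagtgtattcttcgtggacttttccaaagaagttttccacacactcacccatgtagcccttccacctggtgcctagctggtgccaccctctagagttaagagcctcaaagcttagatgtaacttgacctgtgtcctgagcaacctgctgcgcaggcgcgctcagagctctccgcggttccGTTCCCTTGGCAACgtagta
Cfap20 (chr8:95434870-95435069, minus strand): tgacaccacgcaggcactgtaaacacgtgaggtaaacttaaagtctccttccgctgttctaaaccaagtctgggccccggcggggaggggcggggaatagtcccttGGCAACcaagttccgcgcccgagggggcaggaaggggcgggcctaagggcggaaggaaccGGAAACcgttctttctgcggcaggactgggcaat

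In Rfx2 the 2 cores begin 123 and 116 bases before the start site. In Drc1 the single core begins 11 bases before it, and in Rsph9 38 bases before it. The Cfap44 promoter holds 4 cores, between 190 and 19 bases before the start. The X-box of Pifo begins 20 bases before the start. Cfap20, the member of this group that was higher in HE, also holds 2 cores in the 200 bases printed and 3 in its window of 300 bases, and the window holds the forkhead letters. Cores were thus present in members of either direction.

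The members spanned a wide range of levels. Mean RPKM over the 6 samples was 10 or more for 6 of the 80 members, between 1 and 10 for 27 and under 1 for 47. The 6 most abundant were Tppp3, Foxj1, Cfap20, Cfap298, Rsph9 and Cfap36. In each sample at least 78 members had a read. The summed RPKM of the 80 members was 387, 392 and 338 in NC1, NC2 and NC3 and 374, 285 and 240 in HE1, HE2 and HE3. HE1 lay within the NC range and HE2 and HE3 below it. The members lie on 19 chromosomes, and the spans of 44 overlap the span of another gene. The libraries were strand-specific, but it is not stated whether strand was used in counting, so such genes may hold reads of their neighbours. Close paralogs (Dnah7a, Dnah7b and Dnah7c; Rsph3a and Rsph3b) may also share reads.

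The question put to the data was whether prenatal high estradiol altered the transcriptome of the NSC/NPCs. The median member was lower in HE, but no single member passed the test. The median log2 fold change (HE minus NC) of the 68 tested members was -0.47, with 54 lower and 14 higher in mean. Over all 13952 genes tested the median was -0.06, with 7843 lower. At the cutoffs the study used (adjusted p-value under 0.05 and a log2 fold change beyond 1 in size) 0 of 68 members were called. The share called among all genes was 0%. With DESeq2 the paper reported mRNAs called in both directions at these cutoffs. The test here was limma on log2(RPKM + 0.1), so the absence of calls is not a repeat of that count. The smallest adjusted p-value of a member was 0.195 (Rfx2, limma), and that of any gene 0.148. At an unadjusted p under 0.05, 14 members were lower in HE (20.6% of those tested), against 11.8% of all genes, and 2 were higher, against 8.68% of all genes. The HE samples were all below the NC samples for 14 members (20.6%), against 17.9% of all genes, a share close to the background. The reverse held for 3 members (Cfap20, Tekt4 and Dnah8), against 14.8% of all genes.

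**Figure D1:**
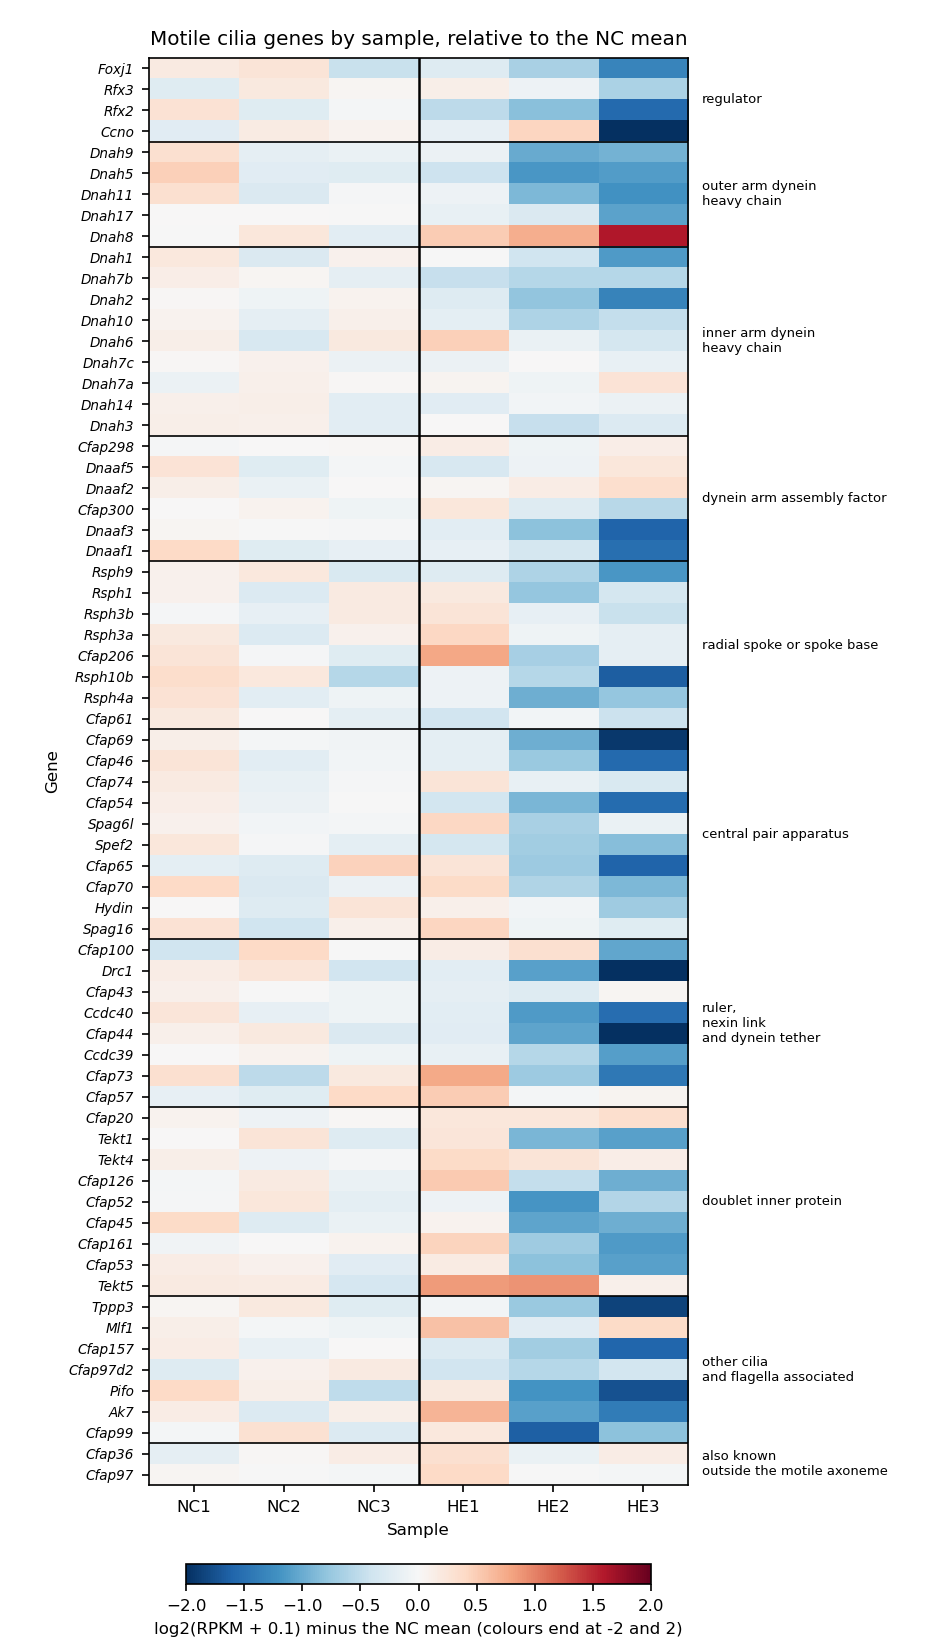
Level of each of the 68 tested members (rows, grouped by role and ordered by mean RPKM) in each sample (columns), as log2(RPKM + 0.1) minus the NC mean of that gene. Blue is below and red above the NC mean. The HE2 and HE3 columns are mostly blue, whereas HE1 resembles the NC columns.

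The shift was not shared by the 3 HE samples. The median member stood at 0.11, -0.03 and -0.04 in NC1, NC2 and NC3 on the log2 scale relative to the NC mean of each gene. It stood at 0.02 in HE1, -0.57 in HE2 and -0.84 in HE3. HE1 thus lay within the NC range, whereas HE2 and HE3 lay below it. HE2 and HE3 were both below all NC samples for 43 of the 68 members (63.2%), against 25.9% of all genes tested. HE1 was below all NC samples for 18 members (26.5%, against 31.4% of all genes). It was within their range for 27 (39.7% against 36.3%) and above it for 23 (33.8% against 32.3%), shares close to the background. HE3 was the lowest of the 6 samples for 41 members (60.3%), but it was so for 44.4% of all genes. HE3 stood apart in the whole table, with the fewest reads on genes and a limma sample weight of 0.158, against 0.852 to 2.87 for the others. When the samples were rescaled by the median of ratios, which removed the offset of HE3 over all genes (-0.17 to 0.00), the member medians were 0.02 in HE1, -0.57 in HE2 and -0.71 in HE3. The median fold change of the members was -0.22 without HE3 and -0.74 without HE1. With a pseudocount of 1 in place of 0.1, which damps low genes, it was -0.19.

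**Figure D2:**
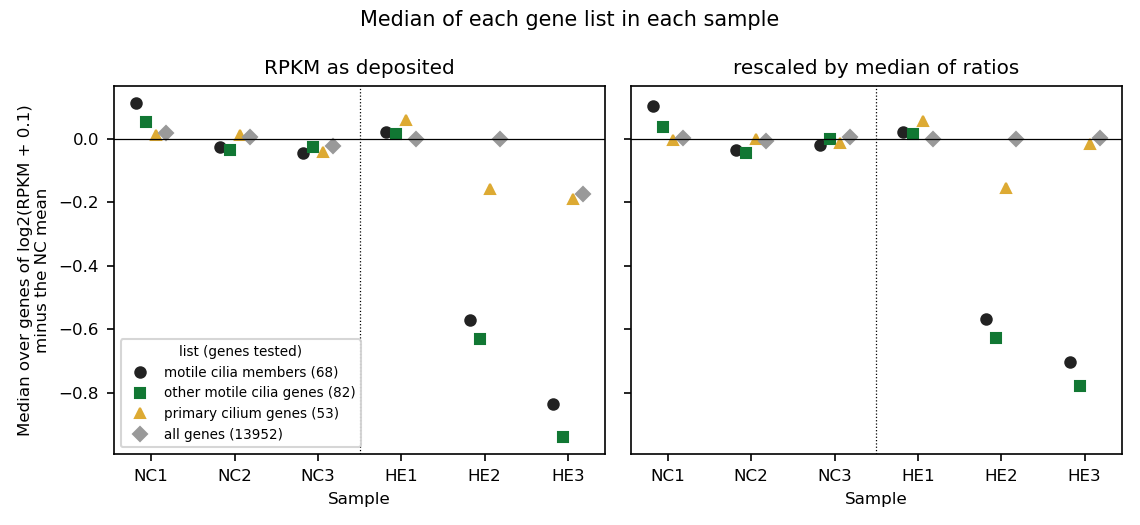
Median over genes of log2(RPKM + 0.1) minus the NC mean, for each sample and each gene list, from RPKM as deposited (left) and after rescaling by the median of ratios (right). Both lists of motile cilia genes lie near 0 in the NC samples and HE1 and between -0.57 and -0.94 in HE2 and HE3.

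Since these are bulk samples, fewer ciliated cells and less cilia RNA per cell cannot be told apart. The members were also set beside all tested genes of like length and level. For genes under 2000 bases the medians were -0.31 for members and 0.06 for all genes. For genes of 2000 to 5000 bases they were -0.53 and -0.05, for 5000 to 10000 bases -0.64 and -0.10, and for longer genes -0.36 and -0.16. Among genes under 1 RPKM the medians were -0.47 for members and -0.14 for all genes, from 1 to 5 RPKM -0.59 and -0.12, and above 5 RPKM -0.15 and -0.01.

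Of the regulators, Foxj1, the forkhead factor that drives motile ciliogenesis, and Rfx2, an RFX factor that acts with it, had the clearest differences. Foxj1 (chr11:116330704-116335499, GRCm38.p6) was at 62.6, 66.4 and 40.6 RPKM in NC1, NC2 and NC3 and at 46.0, 35.1 and 22.0 RPKM in HE1, HE2 and HE3. HE1 lay above NC3, so the groups overlapped. The HE mean was 60.8% of the NC mean (34.4 ± 12.0 against 56.5 ± 13.9 RPKM, SD, n = 3 each), with a log2 fold change of -0.75 ± 0.30 (SE) and an adjusted p-value of 0.229. Without HE3 the fold change was -0.46. Rfx2 (chr17:56775897-56831008) was at 7.34, 5.08 and 5.86 RPKM in NC1, NC2 and NC3, against 4.18, 3.31 and 1.99 RPKM in HE1, HE2 and HE3. All HE samples lay below all NC samples. Its log2 fold change was -0.97 ± 0.28, with an adjusted p-value of 0.195 (limma). With limma's sample weights, which gave HE3 a weight of 0.158, the adjusted p-value was 0.0382. Rfx2 was the only 1 of the 68 tested members under 0.05 in that setting, and it did not pass the fold change cutoff. In the same setting 268 of all 13952 genes tested passed the study's cutoffs.

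The other regulators differed less. Rfx3, a second RFX factor also used by primary cilia, was at 4.33 to 5.90 RPKM in NC and 5.56, 4.75 and 3.26 RPKM in HE1, HE2 and HE3 (log2 fold change -0.21 ± 0.23). Ccno, a cyclin-like protein needed to multiply centrioles in multiciliated cells, was at 2.41 to 3.20 RPKM in NC and 2.53, 3.86 and 0.630 RPKM in HE1, HE2 and HE3. HE2 held the highest level and HE3 the lowest, and its log2 fold change of -0.58 became 0.13 without HE3. Mcidas, which starts the multiciliated program, was near the limit of detection, with 6, 4 and 4 reads in NC and 1, 10 and 1 reads in HE, and was not tested. Mcidas and Ccno are neighbours on chromosome 13, and the nearby Cdc20b had at most 9 reads in any sample.

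**Figure D3:**
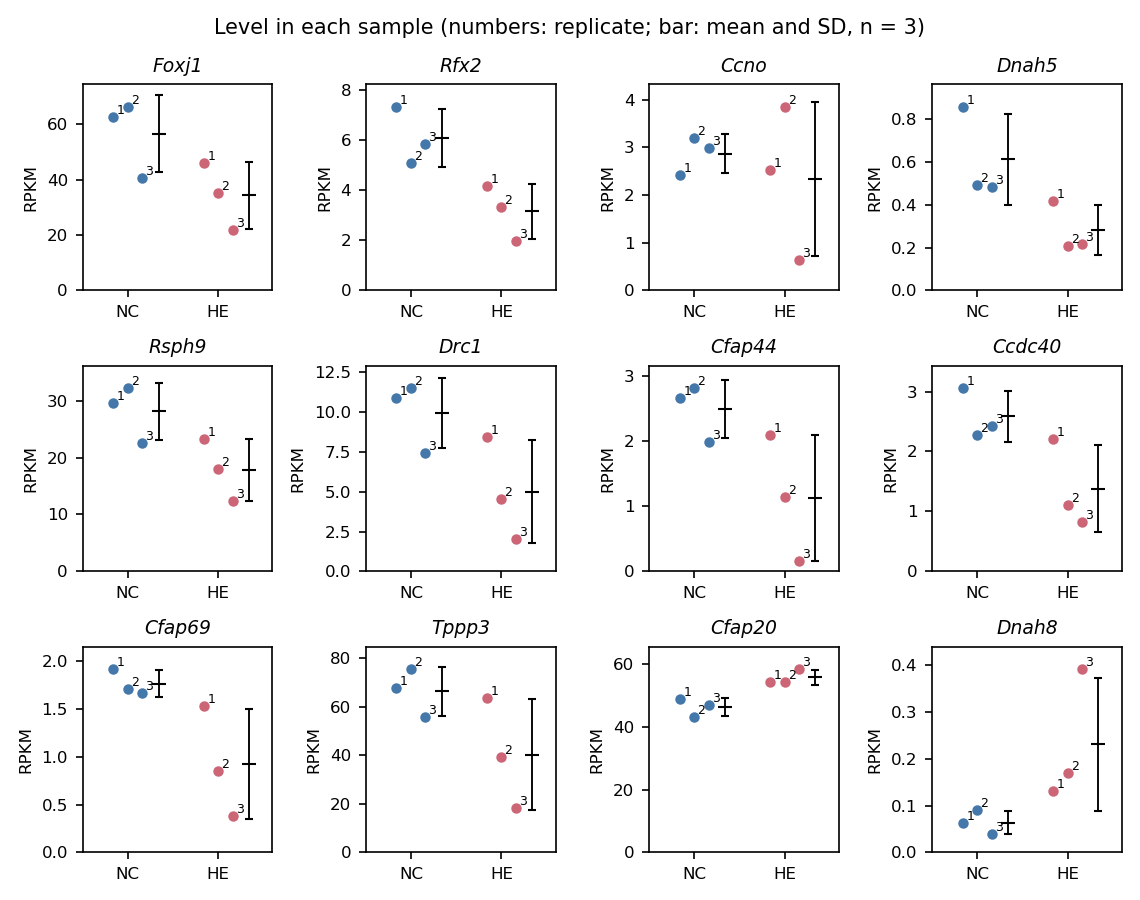
RPKM of 12 members in each sample, NC in blue and HE in red, with replicate numbers beside the points and the mean ± SD (n = 3) as a bar. Every axis starts at 0. For most of the genes shown HE1 lies nearest to the NC samples and HE3 lowest, while Cfap20 and Dnah8 are higher in all HE samples.

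Of the 5 outer arm dynein heavy chains, the motors that set beat frequency, 4 were lower in mean in HE. Dnah5, the principal outer arm motor, was at 0.859, 0.495 and 0.483 RPKM in NC and 0.418, 0.208 and 0.219 RPKM in HE1, HE2 and HE3. All HE samples lay below the NC samples, with a log2 fold change of -0.90 ± 0.31 (adjusted p = 0.205). Dnah9, its partner in the outer arm, had a log2 fold change of -0.69 ± 0.30, and Dnah11 one of -0.73 ± 0.34, and in both HE1 lay within the NC range. Dnah17, the sperm counterpart, was at 0.243 to 0.247 RPKM in NC and at 0.210, 0.181 and 0.0642 RPKM in HE1, HE2 and HE3.

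Dnah8, an outer arm heavy chain known mainly from the sperm flagellum, went the other way. The gene (chr17:30626935-30875762) was at 0.0621, 0.0896 and 0.0398 RPKM in NC and 0.130, 0.169 and 0.392 RPKM in HE1, HE2 and HE3. All HE samples lay above all NC samples, and HE3, lowest for most members, was highest here. The log2 fold change was 0.94 ± 0.34 (adjusted p = 0.210, limma), and without HE3 the log2 fold change was 0.61. Its level was low throughout, with 92 reads in HE3, and with a pseudocount of 1 the fold change was 0.20.

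The inner arm heavy chains, which shape the waveform, had a smaller median of -0.25, with 7 of 9 tested lower in mean. Dnah7b, the most abundant of the Dnah7 paralogs, was at 0.883, 0.816 and 0.690 RPKM in NC and at 0.548, 0.501 and 0.498 RPKM in HE1, HE2 and HE3. The HE samples were close together and all below NC (log2 fold change -0.54 ± 0.19, adjusted p = 0.210). Its paralogs Dnah7a and Dnah7c, at under 0.12 RPKM, had fold changes of 0.08 and -0.08. Dnah2 was at 0.373 to 0.430 RPKM in NC and at 0.325, 0.193 and 0.0997 RPKM in HE (log2 fold change -0.79 ± 0.30, adjusted p = 0.223, and -0.52 without HE3). Dnah1 was at 0.641 to 0.952 RPKM in NC and 0.314 to 0.807 RPKM in HE, and the groups overlapped. Dnah12 was not tested, with 2 to 17 reads.

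The assembly factors, which fold dynein arms in the cytoplasm, had a median of -0.13, with 4 of 6 lower in mean. Cfap298 was at 29.8 to 30.8 RPKM in NC and 28.6 to 33.7 RPKM in HE, with a log2 fold change of 0.06 ± 0.11. The fold changes of Dnaaf5 and Dnaaf2 were -0.06 ± 0.20 and 0.18 ± 0.14, that of Cfap300 was -0.19 ± 0.21 and that of Dnaaf1 -0.67 ± 0.39 (-0.26 without HE3). Dnaaf3 was at 1.77, 1.72 and 1.71 RPKM in NC and 1.48, 0.943 and 0.503 RPKM in HE1, HE2 and HE3. All HE samples lay below NC (log2 fold change -0.88 ± 0.34, adjusted p = 0.225, and -0.51 without HE3).

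The radial spoke genes had a median of -0.30, and 7 of 8 tested were lower in mean. Rsph9, a spoke head protein and among the 6 most abundant members, was at 29.6, 32.3 and 22.6 RPKM in NC and 23.2, 18.0 and 12.3 RPKM in HE1, HE2 and HE3. HE1 lay just above NC3. The log2 fold change was -0.68 ± 0.25 (adjusted p = 0.212, and -0.44 without HE3), and its span overlaps that of Mrps18a. Rsph1, another spoke head protein, had HE1 at 12.1 RPKM, above all NC samples, and HE2 at 6.13 RPKM, the lowest sample (log2 fold change -0.31 ± 0.26). Rsph3b, a spoke stalk protein, differed by -0.11 ± 0.20. Rsph14 and Rsph6a were below the filter, at no more than 8 reads in any sample.

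Of the 10 tested central pair genes, 9 were lower in mean in HE, with a median of -0.50. Cfap69 was at 1.92, 1.71 and 1.66 RPKM in NC and 1.53, 0.849 and 0.386 RPKM in HE1, HE2 and HE3. It was lower in all HE samples, with a log2 fold change of -1.03 ± 0.41 (adjusted p = 0.229) that was -0.58 without HE3. Cfap54 (-0.94 ± 0.31) and Spef2 (-0.63 ± 0.24) were likewise lower in all HE samples. Cfap46 differed by -0.84 ± 0.35 (-0.47 without HE3), with HE1 (1.23 RPKM) just above NC2 (1.22 RPKM). Cfap74 (-0.06 ± 0.22) and Hydin (-0.22 ± 0.30), the latter a large protein of a central pair projection, differed by less than their error. Spag17 and Cfap221 had at most 9 reads in any sample.

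The genes of the ruler, the nexin link and the dynein tether held the 2 lowest fold changes among the members. Drc1, a core subunit of the nexin-dynein regulatory complex (chr5:30281335-30366695), was at 10.9, 11.53 and 7.44 RPKM in NC and 8.43, 4.53 and 2.06 RPKM in HE1, HE2 and HE3. HE1 lay within the NC range and HE2 and HE3 below it. The log2 fold change was -1.16 ± 0.46 (adjusted p = 0.229) and -0.65 without HE3. Cfap44, part of the tether that holds an inner arm motor and chosen here for its values, was at 2.66, 2.82 and 1.99 RPKM in NC and 2.10, 1.14 and 0.154 RPKM in HE1, HE2 and HE3. Its log2 fold change of -1.54 ± 0.72 rested in large part on HE3 and was -0.64 without it. The tether partner Cfap43 was at 3.26 to 3.73 RPKM in NC and 2.89 to 3.58 RPKM in HE, a difference of -0.13 ± 0.15.

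Ccdc40 and Ccdc39 form the ruler that sets the repeat along the doublet. Ccdc40 was at 3.07, 2.27 and 2.42 RPKM in NC and 2.20, 1.11 and 0.825 RPKM in HE1, HE2 and HE3 (log2 fold change -0.96 ± 0.34, adjusted p = 0.210). Its partner Ccdc39 was at 1.32, 1.39 and 1.23 RPKM in NC and 1.17, 0.852 and 0.560 RPKM in HE1, HE2 and HE3 (log2 fold change -0.61 ± 0.26, adjusted p = 0.247, and -0.36 without HE3). Both ruler genes were lower in every HE sample than in any NC sample, though HE1 only narrowly. Cfap100, a tether-associated protein, was at 6.17 to 10.8 RPKM in NC and 9.01, 10.2 and 3.92 RPKM in HE1, HE2 and HE3, and its fold change was -0.19 ± 0.38.

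**Figure D4:**
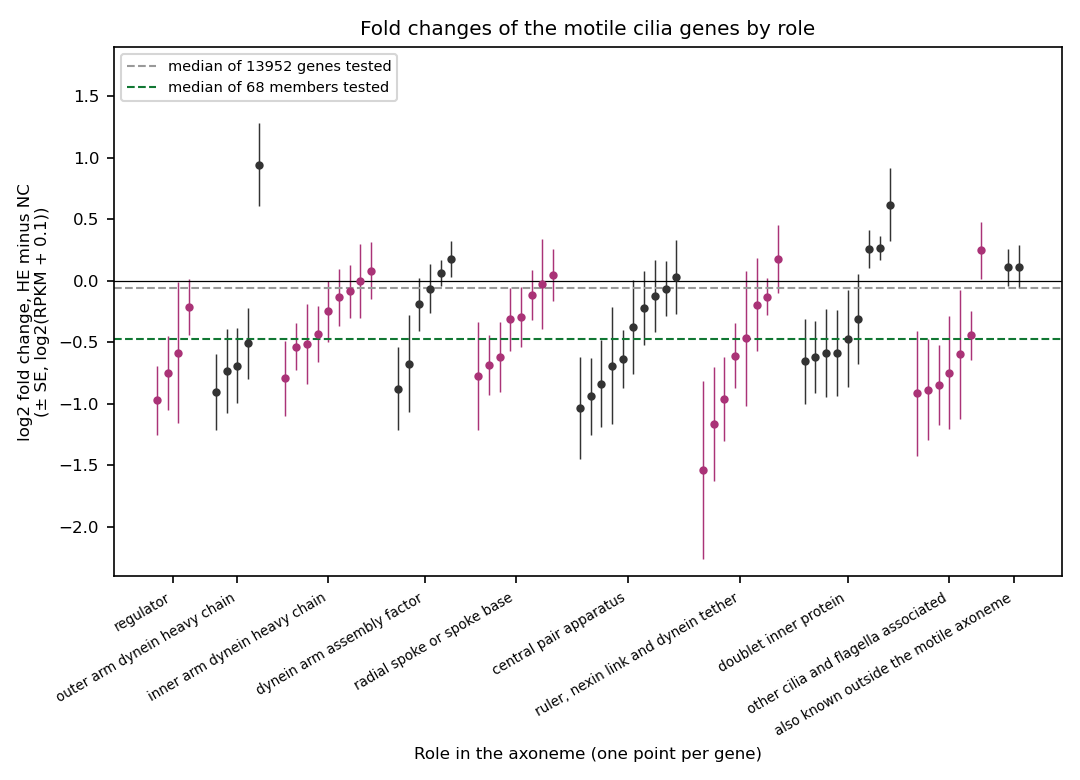
Log2 fold change (HE minus NC) ± SE of each tested member, arranged by role, with colours alternating between roles only to separate them. Most points lie below the median of all genes tested (-0.06, grey line), Cfap44 is lowest at -1.54, and Dnah8 is highest at 0.94.

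The doublet inner proteins, which lie inside the microtubule wall, had a median of -0.47, with 6 of 9 tested lower in mean and 3 higher. Cfap20 stabilises the inner junction of the doublet and is expressed far beyond ciliated cells. Its gene (chr8:95420249-95434869) was at 48.9, 43.4 and 47.0 RPKM in NC and 54.4, 54.5 and 58.7 RPKM in HE1, HE2 and HE3. All HE samples lay above all NC samples, by a modest amount (log2 fold change 0.27 ± 0.10, adjusted p = 0.220). Tekt4 was at 2.42 to 2.82 RPKM in NC and 2.84 to 3.43 RPKM in HE (log2 fold change 0.26 ± 0.15). Tekt1, a tektin of motile cilia, followed the main pattern, with 4.30 to 6.19 RPKM in NC, 6.16 RPKM in HE1, 2.68 RPKM in HE2 and 2.38 RPKM in HE3. Tekt2 and Tekt3 were below the filter, at 3 to 14 and 0 to 4 reads.

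Among the remaining members, Tppp3, a microtubule-bundling protein enriched in ciliated cells, was the most abundant. The gene (chr8:105467492-105471422) was at 67.9, 75.8 and 55.8 RPKM in NC and 63.6, 39.2 and 18.2 RPKM in HE1, HE2 and HE3. HE1 lay within the NC range, and HE2 and HE3 below it (log2 fold change -0.88 ± 0.41, adjusted p = 0.264, and -0.40 without HE3). Cfap157 was lower in all HE samples (-0.85 ± 0.33, adjusted p = 0.224, and -0.48 without HE3). Pifo, chosen here for its promoter, was at 0.656 to 1.32 RPKM in NC and 1.14, 0.372 and 0.221 RPKM in HE1, HE2 and HE3. Mlf1 was at 2.30 to 2.67 RPKM in NC and 3.70, 2.07 and 3.22 RPKM in HE1, HE2 and HE3. Cfap36 and Cfap97, which are also known outside the motile axoneme, differed by 0.11 ± 0.15 and 0.12 ± 0.17. The 12 members below the filter held at most 19 reads in any sample.

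The motile cilia genes outside the rule were also lower in mean in HE. Of the 101 such genes in the table, 82 were tested, with a median log2 fold change of -0.56, and 73 were lower in mean. At an unadjusted p under 0.05, 24 were lower (29.3%, against 11.8% of all genes) and 1, Mns1, was higher (1.22%, against 8.68%), and 0 passed the adjusted cutoffs. Their medians were 0.02 in HE1, -0.63 in HE2 and -0.94 in HE3. The smallest p belonged to Zmynd10, a dynein assembly factor, which was at 1.23, 1.25 and 1.49 RPKM in NC and 0.761, 0.419 and 0.409 RPKM in HE1, HE2 and HE3 (log2 fold change -1.22 ± 0.26, adjusted p = 0.195). Fhad1 (-1.46 ± 0.41), Lrriq1 (-0.89 ± 0.22), Wdr63 (-0.85 ± 0.23), an inner arm intermediate chain, and Ccdc151 (-0.69 ± 0.19), an outer arm docking factor, had the same adjusted p-value. In these 5 genes, picked for their p, HE1 too lay below all NC samples. Over all 82 tested, HE1 did so for 23 (28%), against 31.4% of all genes. All HE samples lay below all NC samples for 22 (26.8%), against 17.9% of all genes.

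Other regulators of the multiciliated program ranged from a few reads to several RPKM. Gmnc, upstream of Mcidas, had 1 to 4 reads, and Deup1, of the centriole-amplifying deuterosome, 1 to 7 reads. Trp73 was at 0.0378 to 0.162 RPKM (log2 fold change -0.04 ± 0.30). Ccdc78, also of the deuterosome, was at 6.01 to 10.2 RPKM in NC and 5.27 to 6.78 RPKM in HE. Myb was at 0.258 to 0.370 RPKM in NC and 0.409, 0.372 and 0.699 RPKM in HE1, HE2 and HE3 (log2 fold change 0.46 ± 0.27).

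Genes of the primary cilium had a median near that of all genes. All 53 such genes in the table were tested, with a median log2 fold change of -0.09, against -0.06 for all genes. Of the 53, 37 (69.8%) were lower in mean, against 56.2% of all genes. At an unadjusted p under 0.05, 3 were lower (5.66%, against 11.8% of all genes) and 0 higher. HE2 and HE3 were both below all NC samples for 24 of them (45.3%, against 25.9% of all genes), and HE2 was so for 58.5%, against 31.4% of all genes. Their medians were 0.06 in HE1, -0.16 in HE2 and -0.19 in HE3, and with median-of-ratios scaling 0.06, -0.16 and -0.02. No test of the difference between the lists was made.

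Markers of cell types that carry motile cilia were read beside the members. The 12 ependymal markers, which include Foxj1, summed to 87.9 to 119 RPKM in NC and to 111, 79.0 and 78.9 RPKM in HE1, HE2 and HE3. Sntn, a marker of mature ciliated cells, had 0 reads in every sample, and the other markers of this list did not share a direction. The HE mean was lower for 7 of the 10 tested and higher for 3, and their log2 fold changes had a median of -0.29. Rarres2 (-1.34 ± 0.49) and Enkur (-0.86 ± 0.31), beside Foxj1, had an unadjusted p under 0.05 and were lower, and S100b, which astrocytes also express, had one and was higher. Its level was 5.42, 9.30 and 5.76 RPKM in NC and 12.4, 10.6 and 15.5 RPKM in HE1, HE2 and HE3, above NC in all HE samples (log2 fold change 0.92 ± 0.24, adjusted p = 0.195). The 12 choroid plexus markers summed to 60.6 to 214 RPKM in NC and to 429, 74.5 and 19.5 RPKM in HE1, HE2 and HE3. The most abundant of these in every sample was Ttr, the transthyretin gene, at 40.1, 36.1 and 187 RPKM in NC and 393, 49.4 and 8.21 RPKM in HE1, HE2 and HE3. HE1, the HE sample whose cilia genes lay at the NC level, thus held the highest sum of choroid plexus markers and HE3 the lowest. In HE1 most of that sum was Ttr. The HE2 sum lay within the NC range, although its median cilia member lay below the NC samples. Of the 8 tested choroid plexus markers, 5 were lower and 3 higher in HE by log2 fold change, with a median of -0.09. The part of choroid plexus cells in the result was not tested.

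Markers of other cell types differed between the samples in several ways. The 6 astrocyte markers summed to 1376 to 1699 RPKM in NC and to 1413, 1118 and 938 RPKM in HE1, HE2 and HE3. Of these 6, 3 were lower and 3 higher in mean in HE. Gfap, the astrocyte filament gene, was at 624, 754 and 624 RPKM in NC and 650, 387 and 195 RPKM in HE1, HE2 and HE3, and Aldh1l1 and Aqp4 were also lower in mean. S100b, Aldoc (0.30 ± 0.18 on the log2 scale) and Gja1 (0.05 ± 0.26) were higher. Prom1, a stem cell and ependymal surface marker, was at 5.03 to 5.70 RPKM in NC and 4.07, 3.06 and 1.81 RPKM in HE. The mesenchyme markers summed to 17.1 to 57.7 RPKM in NC and 56.4 to 125 RPKM in HE, and the microglia markers to 0.265 to 0.694 RPKM in NC and 1.08 to 5.68 RPKM in HE. The endothelial markers summed to 0.799 to 1.25 RPKM in NC and 2.49 to 3.65 RPKM in HE, and the 8 tanycyte markers to 39.6 to 57.6 RPKM in NC and 26.8 to 42.9 RPKM in HE. Neuronal and oligodendrocyte lineage markers summed to 42.0 to 71.0 and 257 to 274 RPKM in NC and to 48.0 to 65.6 and 279 to 503 RPKM in HE. The 10 neural stem cell markers, Prom1 among them, summed to 3087 to 3725 RPKM in NC and 2963 to 4703 RPKM in HE. Vim and Fabp7 were the most abundant of them. By log2 fold change 8 of the 10 were lower in HE and 2 (Fabp7 and Hes1) higher, with a median of -0.24. Sox2, Msi1 and Prom1 were lower in all HE samples than in any NC sample (30% of the 10, against 17.9% of all genes). The microglia, endothelial and oligodendrocyte lineage sums were higher in all HE samples than in any NC sample. The sums of the other lists in this paragraph overlapped between the groups. Of the 5 oligodendrocyte lineage markers, 2 (Olig1 and Olig2) were higher and 3 lower in HE by log2 fold change, with a median of -0.11. The 3 tested microglia markers and the 2 tested endothelial markers were higher in mean. In each of these 2 lists, 2 markers were below the filter. The part of these cells in the result was not tested.

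**Figure D5:**
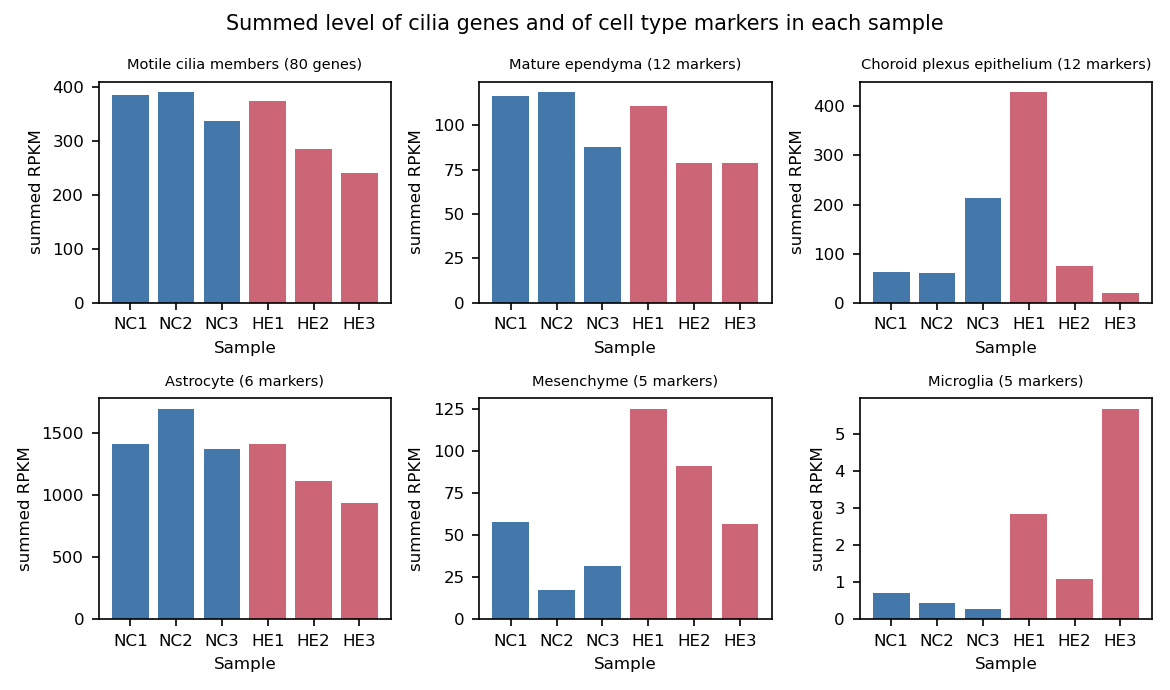
Summed RPKM of the 80 members and of 5 marker lists in each sample, NC in blue and HE in red. The cilia genes and astrocyte markers are lowest in HE2 and HE3, and the choroid plexus markers peak in HE1 at 429 RPKM.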

How the data were processed

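Strand-specific RNA-Seq libraries of 3 NC and 3 HE samples were analysed. Reads of low quality and with adaptor sequence were discarded by the authors, who aligned the others to the mouse genome (mm10, TopHat2 per the submitters' notes, which also name CASAVA 1.7) and counted them per gene. The aligner's version, the counting tool, the annotation and whether counting took account of strand are not given in the sources used here. The deposited RPKM values, computed by the authors, matched the formula from count, length and total to within 4.99e-07. Large deposited read counts carry commas between digits, which were removed before use, and the counts were recorded under the unit "other". The main fit used RPKM. The counts served for the filter, the depth and voom, the only model run on them.

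Members were found by symbol, and identifiers were paired with 21781 symbols. Gene coordinates came from the RefSeq annotation of GRCm38.p6. A gene was tested if 3 or more samples reached a rate equal to 10 reads at median depth and all samples together held 15 or more reads (13952 of 22048). limma 3.58.1 (R 4.3.3, mean-variance trend) was run on log2(RPKM + 0.1), two-sided, with group as the only term and Benjamini-Hochberg adjustment over all genes tested. Fold changes on this scale understate those of low genes. The script was tested on simulated data. The rule for named genes was the regulators, the 3 most abundant tested members of each role, the 8 with the smallest p in each direction among those whose groups do not overlap, and, of the other cilia genes, 6 regulators and the 5 with the smallest p. Dnaaf1, Dnaaf3, Cfap300, Dnah17, Dnah7a, Dnah7c, Hydin, Cfap44, Ccdc39, Pifo, Mns1 and the single markers were named after their values were seen. The members and all lists were chosen with earlier results of these data known, so the lower median of cilia genes is not independent evidence. The samples were harvested separately, but litters are not named, and p-values measure only the spread between these samples. An exact permutation test of 3 against 3 cannot go below p = 0.1. Alternatives were another pseudocount, scaling and filter, sample weights, voom, a replicate block and leaving out each sample.

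The depth was 16078675 to 19137059 gene reads per sample, and 1 read on 1 kilobase is 0.0523 to 0.0622 RPKM. These limits cover counting error only.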

Additional observations from a re-analysis of the deposited data

How the results depend on the processing

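No member passed the study's cutoffs in the main analysis or in any of the 15 alternatives. The number of genes called over the whole table was 0, but 268 with sample weights, 113 with voom quality weights and 0 to 103 when 1 sample was left out (103 without NC3). The member median kept its sign throughout and was -0.74 to -0.22 when 1 sample was left out. The number of members lower at an unadjusted p under 0.05 (14) was 27 with sample weights, 26 with voom quality weights, 23 with the replicate block, and 2 (without NC1 or HE2) to 34 (without HE1) when 1 sample was left out. The share of all genes moved too, from 11.8% to 16%, 14.2%, 14.1%, 5.23% (without NC1), 12.9% (without HE2) and 13.7% (without HE1) in the same settings. Without HE2 or HE3 the member share was 2.94% and 8.82%, below the 12.9% and 10.5% of all genes. Without NC1 or NC2 it was 2.94% and 5.88%, below 5.23% and 6.96%. It was above the share of all genes without HE1 (50%) and without NC3 (11.8%, against 9.73%). The number higher (2) was 1 with a pseudocount of 1 and 0 to 2 with a sample left out. It was 3 (4.41%) with median-of-ratios scaling, sample weights and voom quality weights, against 9.38%, 13.5% and 12.2% of all genes. For the other motile cilia genes the number lower (24) was 38 with sample weights and 8 to 50 with a sample left out, and the number higher 0 to 1. For primary cilium genes the number lower (3) was 9 with sample weights, 7 with voom quality weights and 0 to 7 with a sample left out, and the number higher 0 to 1.

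Single genes that changed sign were close to 0 or rested on 1 sample. With 1 sample left out, fold changes ranged from -1.09 (without HE2) to 0.13 (without HE3) for Ccno, from -0.45 (HE2) to 0.23 (HE3) for Cfap100, from -0.22 (HE1) to 0.053 (HE3) for Cfap74, from -0.025 (HE1) to 0.19 (HE3) for Cfap97, from -0.21 (HE3) to 0.073 (NC1) for Dnaaf5, from -0.015 (HE3) to 0.17 (HE2) for Dnah7a, from -0.38 (HE1) to 0.027 (HE3) for Hydin, from -0.37 (HE1) to 0.0025 (HE3) for Rfx3, from -0.30 (HE1) to 0.049 (HE3) for Rsph3b and from -0.30 (NC2) to 0.17 (NC3) for Trp73. With sample weights they were 0.25 for Ccno, 0.34 for Cfap100, -0.013 for Cfap298, -0.0030 for Dnah7a and -0.030 for Mlf1. With voom quality weights they were 0.18 for Ccno, 0.31 for Cfap100 and 0.032 for Trp73, and with voom 0.050 for Trp73. The cause of these changes was not tested.

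The samples share replicate numbers, but the deviations of same-numbered samples correlated at 0.16, 0.09 and 0.06, so the numbers were not taken to pair them, although each sample correlated best with its own number. With the replicate block 0 genes were called and the member median was -0.47. Depth limits the low members: 47 of 80 were under 1 RPKM, and the 12 below the filter could not be compared.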
